A study of Mus musculus with 2 samples.

Results

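Oxidative phosphorylation subunits are the proteins of the respiratory chain and the ATP synthase in the inner mitochondrial membrane. The genes described here were all rows of the deposited tables whose symbol begins with Ndufa, Ndufb, Ndufc, Ndufs, Ndufv, Uqcr, Cox4, Cox5, Cox6, Cox7, Cox8 or Atp5, is Sdha, Sdhb, Sdhc or Sdhd, or begins with mt-Nd, mt-Co, mt-Cyt or mt-Atp. These names took 108 of 26124 genes. Of them, 86 are subunits encoded in the nucleus (37 of complex I, 4 of complex II, 8 of complex III, 19 of complex IV and 18 of complex V) and 13 are subunits encoded in mitochondrial DNA. The other 9 are no subunits by common knowledge of their products, namely 8 Ndufaf genes, whose products assemble complex I, and Cox7a2l, a factor that joins complexes III and IV. They were counted apart.

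Complexes I and II feed electrons into the chain from NADH and succinate, complex III passes them to cytochrome c, and complex IV hands them to oxygen. Complexes I, III and IV pump protons, and complex V, the ATP synthase, uses the proton gradient to make ATP. All complexes but complex II join products of both genomes, so that transcripts made in the nucleus and in the mitochondria have to be matched. Red pulp macrophages take up and digest old red cells, and maturing red cells use mitochondria for heme synthesis and then discard them.

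Spleen cells bound to anti-F4/80 magnetic beads were sequenced in 2 droplet libraries, each from 1 mouse aged 12 to 16 weeks. By the labels both mice lacked mouse α-globin (Hbatm1Paz, -/-) and carried Tg(HBA-HBBs)41Paz, a human transgene with sickle β-globin. The SCD mouse (sickle cell disease) carried it as Tg/Tg with Hbbtm1Tow -/-, and the control, called wild-type, as Tg/0 with Hbbtm1Tow +/-, so that neither mouse had normal globin genes. The mice were not treated, mature erythrocytes had been lysed, and no other mouse of either genotype was analysed here.

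The mouse β-globin counts went against the labels. Hbb-bs was at 168 CPM (a gene's UMIs over all UMIs of the same cells, on the usual CPM scale, a UMI being the identifier that marks 1 captured transcript) in erythroid-like cells of the wild-type-labelled library and at 64088 CPM in those of the SCD-labelled library, and Hbb-bt at 284 and 19954 CPM. Each library is therefore called by its label alone, as the SCD-labelled or the wild-type-labelled library. After filters, 19418 cells of the latter and 12279 of the former were kept, with medians of 4115.5 and 4571 UMIs per cell, and 65 of the kept barcodes occurred in both. All comparisons between libraries rest on the same 2 mice and have no replicate check, so no test was made. Where 2 values follow each other without further words, the first is that of the wild-type-labelled library. Intervals are exact 95% intervals that cover counting error only.

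Cells were grouped by clustering without any of the 108 genes, and clusters were named from marker lists. The classes were red pulp macrophage-like (RPM-like, 4731 cells in the wild-type-labelled library and 1604 in the SCD-labelled library), erythroblastic island-like (EBI-like, with median macrophage and erythroid marker ratios over B lymphocyte-like cells both past set limits, 5252 and 811), erythroid-like (2668 and 295), B lymphocyte-like (527 and 1731), T lymphocyte-like (61 and 74), Ly6c-high monocyte-like (1037 and 974), Ly6c-low monocyte-like (454 and 1039), cDC2-like (408 and 1210), mature DC-like (431 and 644) and neutrophil-like (278 and 13). The other 3571 and 3884 kept cells lay in clusters left unnamed. The cDC2-like cluster had 3 of 6 cDC2 markers past the naming limits, but also 3 of 7 Ly6c-low monocyte markers. Of its cells, 31.0% were marked as likely doublets. Marked doublets were 40.6% in the EBI-like cluster led by Car1 and Mt2 and 21.4% in that led by Xpo7 and Tmcc2. In the other EBI-like clusters they were 0.71 to 8.36%. The part of doublets in EBI-like values was not tested. Against all other cells, EBI-like clusters mostly passed the naming limits with 1 marker list only. Red pulp macrophage markers past them were 0 of 11 in the EBI-like clusters led by Car1 and by Xpo7, beside 5 and 7 of 11 erythroid markers. In that led by Slfn14 they were 1 and 5. In those led by Hspa1b, by Tent5c and by Adamdec1 they were 9 and 0, 6 and 1, and 3 and 1. The 2 libraries filled some classes from different clusters. RPM-like cells came mostly from the clusters led by Marco and Lox and by Dock3 and Gm48996 in the wild-type-labelled library, and from the cluster led by Rgs1 and Adamdec1 in the SCD-labelled library. The EBI-like class came from 5 clusters in the former and mostly from a cluster led by Adamdec1 and Tent5c in the latter. Comparisons within single clusters are therefore given too.

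Nearly all of the genes were found. Of the 108, 106 had a UMI in a kept cell, and 79 of the 86 nuclear subunits had at least 100 over both libraries. The other 7 were isoforms known from other tissues and 1 row of Atp5o. Cox8c, known from testis, was at 0 in both libraries, which allows a share of cells with a UMI of up to 0.0190% and 0.0300%. Cox7b2 and Ndufa4l2 had 1 UMI each, both in the wild-type-labelled library, and Cox8b had 1 in the SCD-labelled library. Cox4i2, the lung and hypoxia form of the complex IV subunit Cox4i1, had 38 and 22 UMIs, and Cox7a1, the muscle form of Cox7a2, had 113 and 33. Cox6a2, the heart and muscle form of Cox6a1, had 33 and 6 UMIs, of which 16 lay in 5 of 61 T lymphocyte-like cells of the wild-type-labelled library (8.20%, interval 2.72 to 18.1%). None lay in the 74 T lymphocyte-like cells of the other library, where a count of 0 allows up to 4.86%. The second of 2 rows named Atp5o (ENSMUSG00000116933), which overlaps the first on chromosome 16, was also at 0, so that reads shared by both rows may be missing from Atp5o.

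The sum of nuclear subunits differed less between cell classes than the sum of mitochondrial-encoded subunits. In the wild-type-labelled library, nuclear subunits made up 16268 CPM in erythroid-like cells, the highest of 10 classes, and 11137 CPM in neutrophil-like cells, the lowest, a ratio of 1.46. Mitochondrial-encoded subunits ranged from 92446 CPM in B lymphocyte-like to 45779 CPM in neutrophil-like cells, a ratio of 2.02. In the SCD-labelled library, over the 9 classes with at least 50 cells, nuclear subunits ranged from 13638 CPM in Ly6c-high monocyte-like to 8580 CPM in EBI-like cells (ratio 1.59), and mitochondrial-encoded subunits from 90699 CPM in B lymphocyte-like to 44883 CPM in Ly6c-high monocyte-like cells (ratio 2.02). B lymphocyte-like cells thus held the highest CPM of mitochondrial-encoded subunits in both libraries.

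The nuclear share, the part of all subunit UMIs that came from nuclear genes, set lymphocytes and macrophages apart from monocytes and erythroid cells. In the wild-type-labelled library it was 11.4% (11.2 to 11.5%) in B lymphocyte-like, 12.0% (11.99 to 12.09%) in RPM-like, 12.9% in EBI-like, 13.1% in mature DC-like, 14.2% in T lymphocyte-like, 15.3% in Ly6c-low monocyte-like, 18.3% in cDC2-like, 19.1% in erythroid-like, 19.6% in neutrophil-like and 20.3% (20.2 to 20.4%) in Ly6c-high monocyte-like cells. Neighbours in this order have counting intervals apart, except EBI-like and mature DC-like cells, whose intervals overlap, and the spread between mice is unknown. The highest value of any cluster, 26.6%, was in an unnamed cluster of the wild-type-labelled library (202 cells) led by Mpo, Prtn3 and Elane, genes of granulocyte precursors, which also had the highest nuclear sum, 19829 CPM.

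**Figure D1:**
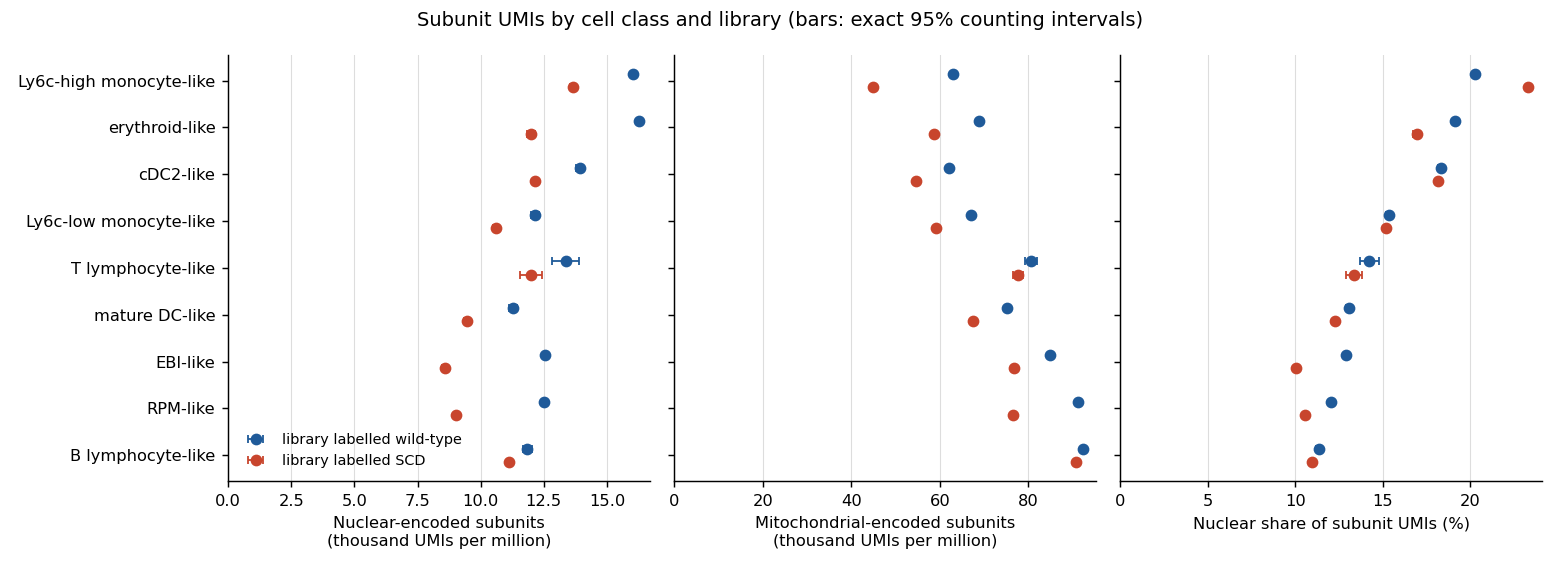
Nuclear and mitochondrial-encoded subunit sums (CPM divided by 1000, left and middle) and the nuclear share of subunit UMIs (%, right) in 9 cell classes, with blue points for the wild-type-labelled library, red points for the SCD-labelled library and bars for exact 95% counting intervals. Nuclear sums are lower in the SCD-labelled library in every class shown, and the share is higher there only in Ly6c-high monocyte-like cells (23.3% against 20.3%).

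Between the libraries, both sums were lower in the SCD-labelled library in all 9 classes with at least 50 cells in each. In RPM-like cells nuclear subunits were at 12501 CPM (12448 to 12555) in the wild-type-labelled library and at 9034 CPM (8966 to 9103) in the SCD-labelled library, and mitochondrial-encoded subunits at 91304 and 76598 CPM. In EBI-like cells the nuclear values were 12538 and 8580 CPM and the mitochondrial values 84836 and 76863 CPM. In erythroid-like cells they were 16268 and 11988 CPM, and 68870 and 58758 CPM. The gap was smaller in B lymphocyte-like cells, which are 1 cluster, with 11838 and 11131 CPM nuclear and 92446 and 90699 CPM mitochondrial. A cluster led by Iglc2 and Fcmr (433 and 621 cells) also had 9 of 9 B lymphocyte markers, but was left unnamed for 58.0% marked doublets. It had 12345 and 10646 CPM nuclear and 84967 and 74770 CPM mitochondrial. In Ly6c-high monocyte-like cells the larger gap was on the mitochondrial side, with 63061 and 44883 CPM, beside 16031 and 13638 CPM for nuclear subunits.

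The nuclear share was lower in the SCD-labelled library, with intervals apart, in 5 of the 9 classes. It was 12.0% and 10.6% in RPM-like, 12.9% and 10.0% in EBI-like, 19.1% and 16.9% in erythroid-like, 11.4% and 10.9% in B lymphocyte-like, and 13.1% and 12.3% in mature DC-like cells. In Ly6c-high monocyte-like cells it was higher, 23.3% against 20.3%. In T lymphocyte-like, Ly6c-low monocyte-like and cDC2-like cells the intervals overlapped, with shares of 14.2% and 13.4%, 15.3% and 15.2%, and 18.3% and 18.2%. Cell by cell, among cells with 2000 to 8000 UMIs, the median share was 11.7% and 10.6% in RPM-like, 17.8% and 15.1% in erythroid-like, and 22.3% and 24.3% in Ly6c-high monocyte-like cells, in the order of the sums. In cDC2-like and Ly6c-low monocyte-like cells the medians were higher in the SCD-labelled library, 18.1% and 19.5%, and 16.9% and 17.1%, where the shares of the sums were 18.3% and 18.2%, and 15.3% and 15.2%. In B lymphocyte-like cells the medians were 11.2% and 10.8% in this depth range. Over all cells of that class they were nearly equal, 10.86% and 10.87%, although the intervals of the sums lay apart.

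In RPM-like cells the direction of the share depended on shallow cells. The median depth was 2138 UMIs in the wild-type-labelled library and 4124.5 in the SCD-labelled library. Cells with 500 to 2000 UMIs had a share of 12.5% in the former and 16.2% in the latter, whereas at 2000 to 4000, 4000 to 8000 and over 8000 UMIs it was 11.7 to 12.2% in the former and 10.2 to 10.4% in the latter. With equal weight for every cell, the mean share was higher in the SCD-labelled library by 0.81 percentage points. The nuclear sum itself was lower in the SCD-labelled library in all 4 depth ranges, with 14555 and 11240 CPM in the shallowest and 11568 and 9060 CPM in the deepest. The mitochondrial sum in the shallowest range was 102238 and 58292 CPM. In erythroid-like cells depth and the nuclear sum moved together, with 13054 and 5303 CPM at 2000 to 4000 UMIs and 17267 and 14951 CPM over 8000. The part of depth in these differences was not tested.

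Subunit by subunit, nuclear genes were shifted towards lower values in macrophages and erythroid cells and much less in B lymphocyte-like cells. Ratios below are log2 of CPM in the SCD-labelled library over the wild-type-labelled library, for genes with at least 100 UMIs in a class over both libraries. In RPM-like cells the median of 77 nuclear subunits was -0.43, beside 0.20 for all 9979 genes, and 71 lay below 0. Of the 77, 25 were at least 1.5-fold lower and 0 at least 1.5-fold higher, beside 9.37% of all genes lower and 24.1% higher. In EBI-like cells the median of 78 was -0.58, beside -0.06 for all genes, with 37 at least 1.5-fold lower and 0 higher, beside 16.8% and 12% of all genes. In erythroid-like cells the median of 78 was -0.48, beside -0.12 for all genes, with 21 lower and 0 higher, beside 16.7% and 5.21%. This median was -0.31 at clustering resolution 0.5 and -0.77 in cells with 2000 to 8000 UMIs alone. In B lymphocyte-like cells the median of 77 was -0.07, beside 0.07 for all genes, with 0 lower and 1 higher, beside 4% and 6.94%.

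The remaining classes lay between these. The nuclear median was -0.24 in Ly6c-high monocyte-like cells (2 of 78 lower and 0 higher, beside 10.2% and 8.66% of all genes), -0.21 in Ly6c-low monocyte-like cells (8 of 77 lower and 1 higher, beside 7.29% and 11.1%), -0.17 in cDC2-like cells (2 of 78 lower and 0 higher, beside 5.15% and 6.89%) and -0.29 in mature DC-like cells (15 of 76 lower and 0 higher, beside 13.8% and 10.5%). Only 19 nuclear subunits reached 100 UMIs in T lymphocyte-like cells, with a median of -0.11, 3 lower and 0 higher, beside 7.08% and 10.5%. In the 8 larger classes 76 nuclear subunits could be followed throughout, and 37 of them (48.7%) lay below 0 in all 8, beside 695 of 5403 genes (12.9%). In at least 7 of the 8 it was 56 (73.7%), beside 22.9% of all genes. These 8 comparisons share their 2 libraries and are not independent of each other.

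**Figure D2:**
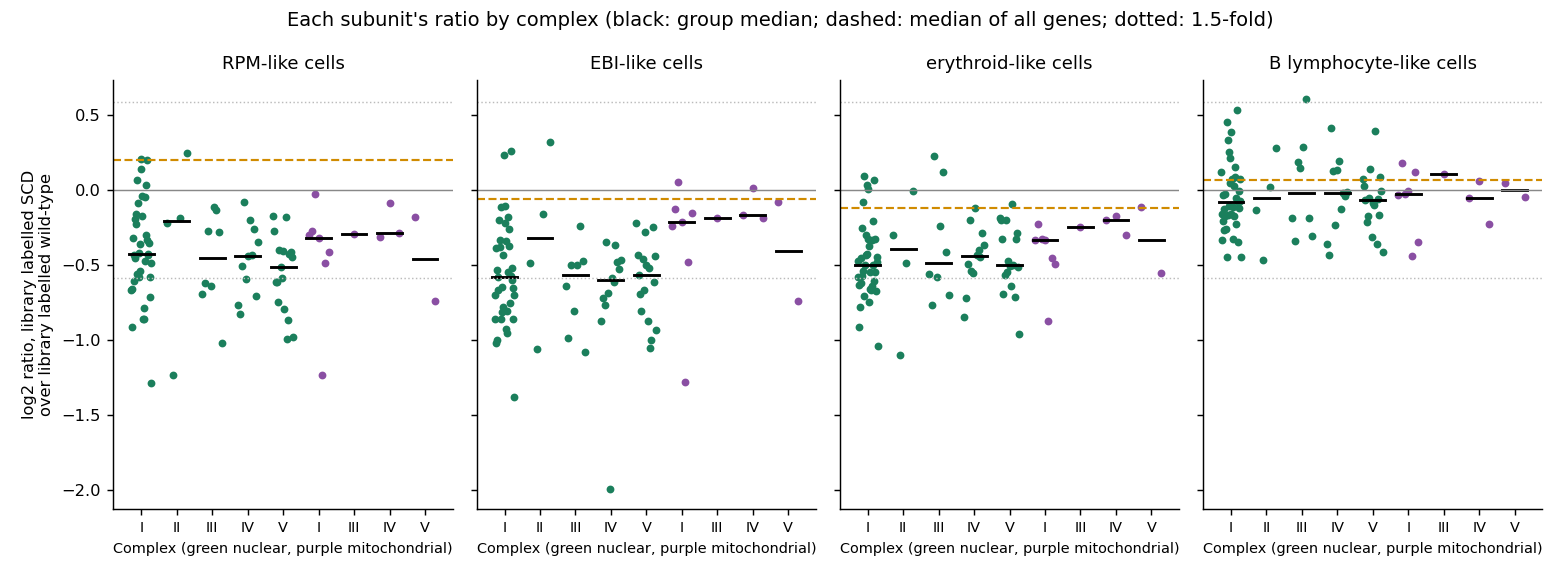
Each point is 1 subunit in RPM-like, EBI-like, erythroid-like or B lymphocyte-like cells, placed by complex (green nuclear, purple mitochondrial-encoded) and by its log2 ratio of the SCD-labelled library over the wild-type-labelled library, with black bars for group medians, a dashed line for the median of all genes and dotted lines at 1.5-fold. In RPM-like cells nuclear medians run from -0.51 (complex V) to -0.20 (complex II), all below the median of all genes, 0.20.

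The shift was spread over all complexes. In RPM-like cells the nuclear median was -0.43 for complex I, -0.20 for complex II, -0.45 for complex III, -0.44 for complex IV and -0.51 for complex V. In EBI-like cells these were -0.58, -0.32, -0.57, -0.60 and -0.57, in erythroid-like cells -0.50, -0.39, -0.49, -0.44 and -0.50, and in B lymphocyte-like cells -0.08, -0.06, -0.02, -0.02 and -0.07. All 17 measured nuclear subunits of complex V and all 8 of complex III lay below 0 in RPM-like and in EBI-like cells.

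In complex I, Ndufv3, a small accessory subunit of the NADH-binding module (chr17:31520115-31531331, + strand, GRCm38), had the lowest ratio of the nuclear subunits in RPM-like cells. It was at 129.8 CPM in the wild-type-labelled library and at 53.1 CPM in the SCD-labelled library, a log2 ratio of -1.29 (-1.45 to -1.13). Its ratio was -1.38 in EBI-like, -1.04 in erythroid-like and -0.45 in B lymphocyte-like cells, and it was past 1.5-fold lower in 7 of the 8 larger classes, all but B lymphocyte-like cells. A few complex I genes went the other way. Ndufb3, an accessory subunit of the membrane arm, lay above 0 in all 8 classes, with ratios of 0.03 to 0.29, the only nuclear subunit to do so. Ndufs4, an accessory subunit of the matrix arm, was at 38.5 CPM and 44.4 CPM in RPM-like cells (0.20, 0.01 to 0.40) and reached 0.68 in Ly6c-low monocyte-like cells. It was 1 of only 2 nuclear subunits, of 76 followed in all 8 classes, past 1.5-fold higher in any of them. Of all genes followed there, 1518 of 5403 were. Ndufb4 was at 71.5 CPM and 82.7 CPM in RPM-like cells (0.21, 0.07 to 0.35). The core subunit Ndufs1 was at 59.3 and 60.8 CPM there, with an interval across 0 (-0.13 to 0.20), and Ndufa9 at 42.7 and 29.0 CPM (-0.56, -0.78 to -0.34).

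Complex II, succinate dehydrogenase, is built from 4 nuclear gene products alone, and its members diverged. Sdhb, the iron-sulfur subunit (chr4:140961203-140979193, + strand), was at 82.7 CPM and 35.2 CPM in RPM-like cells, a log2 ratio of -1.23 (-1.43 to -1.04), and at 46.2 CPM and 21.6 CPM in erythroid-like cells (-1.10, -1.58 to -0.65). It was past 1.5-fold lower in 6 of the 8 classes, and at 66.3 and 47.9 CPM in B lymphocyte-like cells (-0.47). Sdhd, a membrane anchor of the same complex, was at 74.1 CPM and 88.1 CPM in RPM-like cells (0.25, 0.11 to 0.39) and above 0 in 7 of the 8 classes, with erythroid-like cells (-0.01) as the exception. The catalytic subunit Sdha was at 214 CPM and 184 CPM in RPM-like cells (-0.22) and the other anchor Sdhc at 178 and 157 CPM (-0.19). Subunits of 1 complex that bind each other were therefore spread over more than 1 log2 unit in the same cells.

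In complexes III to V the ratios were mostly negative in macrophages and erythroid cells. Uqcrq, a small subunit of complex III (chr11:53427922-53430831, - strand), was at 185 CPM and 91.4 CPM in RPM-like cells (-1.02, -1.14 to -0.90), and at 183 and 86.5 CPM in EBI-like cells (-1.08). The core proteins Uqcrc1 and Uqcrc2 were at 54.3 and 34.8 CPM (-0.64) and at 78.5 and 72.6 CPM (-0.11) in RPM-like cells. Uqcrfs1, the Rieske iron-sulfur protein, was at 51.3 and 78.1 CPM in B lymphocyte-like cells (0.61, 0.25 to 0.98), the highest ratio in that class and the other subunit past 1.5-fold higher. In erythroid-like cells the highest ratios were those of Uqcrb (0.22, 0.02 to 0.43), Uqcrfs1 (0.12, -0.09 to 0.32) and Ndufab1 (0.09, -0.12 to 0.29), the mitochondrial acyl carrier protein, and only that of Uqcrb has an interval that leaves out 0.

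In complex IV, too, most ratios were lower in macrophages and erythroid cells than in B lymphocyte-like cells. Cox5a was at 670 CPM and 377 CPM in RPM-like cells (-0.83) and at 293 CPM and 178 CPM in erythroid-like cells (-0.72), and Cox4i1 at 625 and 367 CPM and at 722 and 401 CPM (-0.77 and -0.85). In B lymphocyte-like cells Cox5a was at 271 and 201 CPM (-0.43). Its partner Cox5b was at 54.3 CPM and 38.3 CPM in RPM-like cells (-0.50) but at 62.7 and 83.4 CPM in B lymphocyte-like cells (0.41, 0.08 to 0.76). In complex V the α and β subunits (Atp5a1 and Atp5b) lay nearer to 0 than most small ones. Atp5a1 was at 494 and 438 CPM (-0.18) and Atp5b at 275 and 227 CPM (-0.27) in RPM-like cells, while Atp5k, a small membrane subunit, had -0.87 there and -0.71 in erythroid-like cells. Atp5o, the stalk subunit, was at 200 CPM and 103 CPM in erythroid-like cells (-0.96). Besides Ndufv3 and Sdhb, Uqcrq and Atp5k were past 1.5-fold lower in 5 of the 8 classes, and Uqcr11, Ndufs8 and Atp5d in 4. These 7 are 9.21% of the 76 nuclear subunits followed in all 8 classes, beside 6.31% of all genes, so their number lies near that of all genes.

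In EBI-like cells the highest ratios were those of Sdhd (65.2 and 81.2 CPM, 0.32), Ndufs4 (0.26) and Ndufb3 (0.23). In B lymphocyte-like cells Ndufs4 (39.2 and 56.9 CPM, 0.54) and Ndufa8 (37.8 and 51.8 CPM, 0.46), both of complex I, followed Uqcrfs1, and the lowest were Sdhb, Ndufv3 and Ndufa9 (44.2 and 32.5 CPM, -0.44). Ndufs4 was thus among the 3 highest in both classes and in RPM-like cells.

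Of the 9 genes counted apart, the Ndufaf genes had medians nearer to 0 than the nuclear subunits in RPM-like, EBI-like and erythroid-like cells. The 8 Ndufaf genes had a median of 0.12 in RPM-like cells with 0 past the fold. All genes had 0.20 there, with 9.37% lower and 24.1% higher. The Ndufaf median was -0.03 over 7 in EBI-like cells and -0.18 over 6 in erythroid-like cells, with 1 lower in each. All genes had -0.06 and -0.12 there, with 16.8% and 16.7% lower. The Ndufaf median was 0.12 over 4 in B lymphocyte-like cells, with 0 past the fold, beside 0.07 for all genes, with 4% lower and 6.94% higher. Cox7a2l was at 336 CPM and 321 CPM in RPM-like cells (-0.06, -0.13 to 0.01). In erythroid-like cells it was at 205 CPM and 149 CPM (-0.46), about the nuclear subunits' median of -0.48.

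Mitochondrial-encoded subunits are transcribed as long precursors from both strands of the mitochondrial DNA and cut at tRNAs, except where 2 reading frames share 1 transcript. In RPM-like cells all 13 lay below 0, with a median of -0.30. The complex IV transcripts mt-Co1, mt-Co2 and mt-Co3 were at 21812 and 17568, 12205 and 11489, and 17881 and 14653 CPM (-0.31, -0.09 and -0.29). Those of complex V, mt-Atp6 and mt-Atp8, were at 12695 and 11204 CPM (-0.18) and at 229 and 137 CPM (-0.74), and mt-Cytb of complex III at 6560 and 5354 CPM (-0.29). Of complex I, mt-Nd1, mt-Nd2, mt-Nd3, mt-Nd4 and mt-Nd5 had ratios of -0.30, -0.28, -0.03, -0.32 and -0.48. mt-Nd6, from the other strand, was at 96.8 and 72.7 CPM (-0.41), and mt-Nd4l at 659 and 281 CPM (-1.23, -1.30 to -1.16). Past 1.5-fold lower were mt-Nd4l and mt-Atp8 alone, 2 of 13, beside 9.37% of all genes.

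mt-Nd4l had the lowest ratio of the 13 in the other larger classes too. It was at 602 and 247 CPM in EBI-like (-1.28), 452 and 247 CPM in erythroid-like (-0.87), 615 and 454 CPM in B lymphocyte-like (-0.44) and 414 and 214 CPM in Ly6c-high monocyte-like cells (-0.95). It was past the fold in 7 of the 8 larger classes, mt-Atp8 in 5 and mt-Nd6 in 3. mt-Nd6 came next after mt-Nd4l in B lymphocyte-like (-0.35), Ly6c-high monocyte-like (-0.87), cDC2-like (-0.71) and mature DC-like cells (-0.65). The median of all 13 was -0.19 in EBI-like, -0.33 in erythroid-like and -0.03 in B lymphocyte-like cells, with 2, 1 and 0 past 1.5-fold lower. Of all genes, 16.8%, 16.7% and 4% were lower in these classes. In Ly6c-high monocyte-like cells the median of the 13 was -0.58, with 7 of 13 lower, beside 10.2% of all genes. Among the 7 were mt-Co3 (12631 and 7939 CPM, -0.67) and mt-Cytb (3996 and 2644 CPM, -0.60). Over the 8 classes, 7 of the 13 lay below 0 in all and 11 in at least 7, beside 12.9% and 22.9% of all genes.

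**Figure D3:**
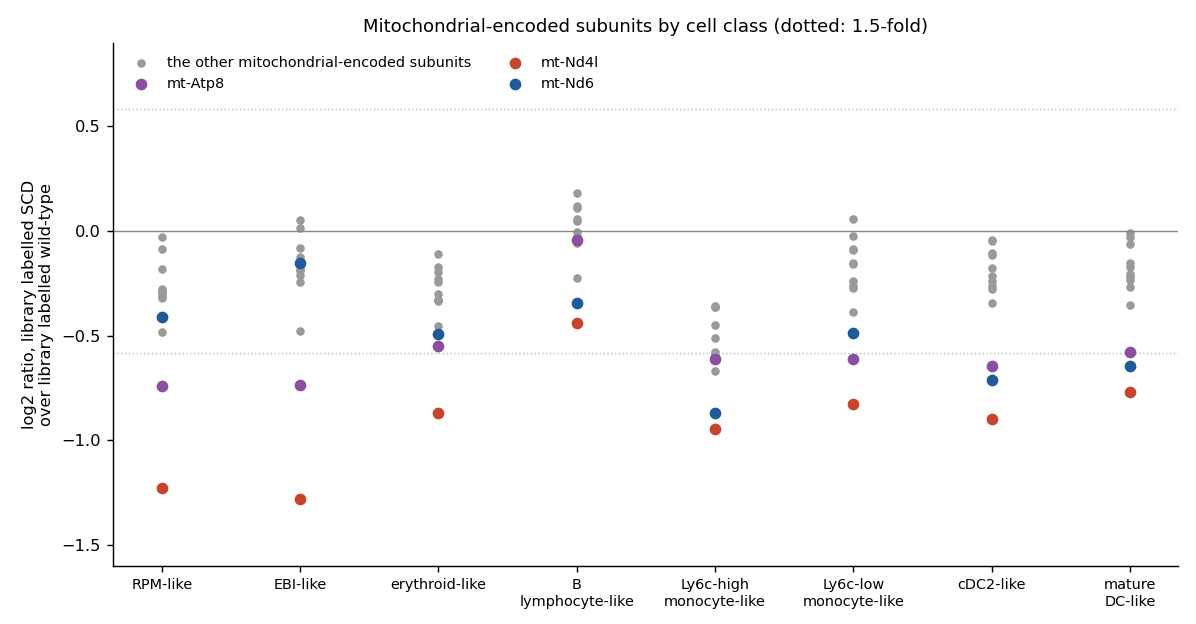
Each point is 1 of 13 mitochondrial-encoded subunits in 8 cell classes (x axis) by its log2 ratio of the SCD-labelled library over the wild-type-labelled library (y axis), with mt-Nd4l in red, mt-Atp8 in purple, mt-Nd6 in blue and dotted lines at 1.5-fold. mt-Nd4l is the lowest point in each class, from -1.28 in EBI-like to -0.44 in B lymphocyte-like cells.

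Both mt-Nd4l and mt-Atp8 share their transcript, and a few bases, with the longer gene behind them. The stretches below are from mouse mitochondrial DNA (GRCm38, + strand, annotation GENCODE M21), with the bases that belong to both reading frames in capitals. They are shown because a read that ends in such a stretch can belong to either gene, so that counts of these 4 genes are uncertain where the counting splits them. The overlap of mt-Atp8 (chrM:7766-7969) and mt-Atp6 (chrM:7927-8607) is 43 bases, 21.1% of mt-Atp8. That of mt-Nd4l (chrM:9877-10173) and mt-Nd4 (chrM:10167-11544) is 7 bases. The capitals begin with the start codon of the second gene and end with the stop codon of the first.
mt-Atp8 and mt-Atp6, chrM:7907-7989: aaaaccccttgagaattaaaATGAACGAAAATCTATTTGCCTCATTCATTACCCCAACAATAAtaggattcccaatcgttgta
mt-Nd4l and mt-Nd4, chrM:10147-10193: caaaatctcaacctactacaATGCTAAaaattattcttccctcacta

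Within these shared transcripts the ratio of UMIs was lower in the SCD-labelled library, for mt-Nd4l with intervals apart in all 9 classes. Per 100 UMIs of mt-Nd4 there were 9.36 to 12.0 of mt-Nd4l over 9 classes in the wild-type-labelled library and 4.56 to 7.29 in the SCD-labelled library, ranges that do not overlap. In RPM-like cells the values were 9.41 (9.22 to 9.59) and 5.01 (4.79 to 5.23), and in B lymphocyte-like cells 9.53 and 7.05. Per 100 UMIs of mt-Atp6 there were 1.63 to 2.19 of mt-Atp8 and 1.11 to 1.70, ranges that overlap, with 1.81 and 1.23 in RPM-like and 1.69 and 1.58, with intervals that overlap, in B lymphocyte-like cells. A difference between genes of 1 transcript that recurs in all classes of 1 library cannot be told apart from a difference between the libraries' preparation, since each mouse is 1 library.

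Within clusters the nuclear shift recurred. In all 17 clusters with at least 50 cells of each library, the nuclear median was below 0 and below that of all genes, while the mitochondrial median was below 0 in 13. The 2 erythroid-like clusters differed in size. In the cluster led by Hemgn and Klf1, genes of dividing erythroblasts (2035 and 186 cells), nuclear subunits were at 16702 and 13386 CPM with a median ratio of -0.36. In the cluster led by Xpo7 and Tmcc2, genes of late red cell maturation (633 and 109 cells), they were at 12337 and 4913 CPM with a median ratio of -1.53. There 53 of 57 were past 1.5-fold lower and 0 higher, beside 52.6% and 4.21% of all genes, the median of all genes was -0.63, and globin took 7.16% of all UMIs in the wild-type-labelled library and 26.7% in the SCD-labelled library, beside 2.86% and 9.11% in the Hemgn cluster. The part of globin in the total was not tested within these clusters.

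The RPM-like clusters behaved differently from each other. In the cluster led by Marco and Lox (3476 and 75 cells, with a median of 942 UMIs in the 75), nuclear subunits were at 14409 and 14398 CPM with a median ratio of -0.08. Of 77, 17 were past 1.5-fold lower and 13 higher, beside 22.5% and 28.4% of all genes. Mitochondrial-encoded subunits were at 105191 and 54631 CPM there, a median of -1.0 with 13 of 13 past 1.5-fold lower. In the cluster led by Rgs1 and Adamdec1 (50 and 1522 cells) it was the reverse, with nuclear sums of 12037 and 8967 CPM (median -0.38) and mitochondrial sums of 76232 and 76946 CPM (0.05). Each of these rests on 75 or 50 cells in 1 library. Among other clusters the nuclear median was -0.61 in the EBI-like cluster led by Xpo7 and Tmcc2, -0.01 in a cycling, unnamed cluster led by Cep55 and Pimreg, and -0.09 in an unnamed cluster led by Ffar2 and Kit.

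**Figure D4:**
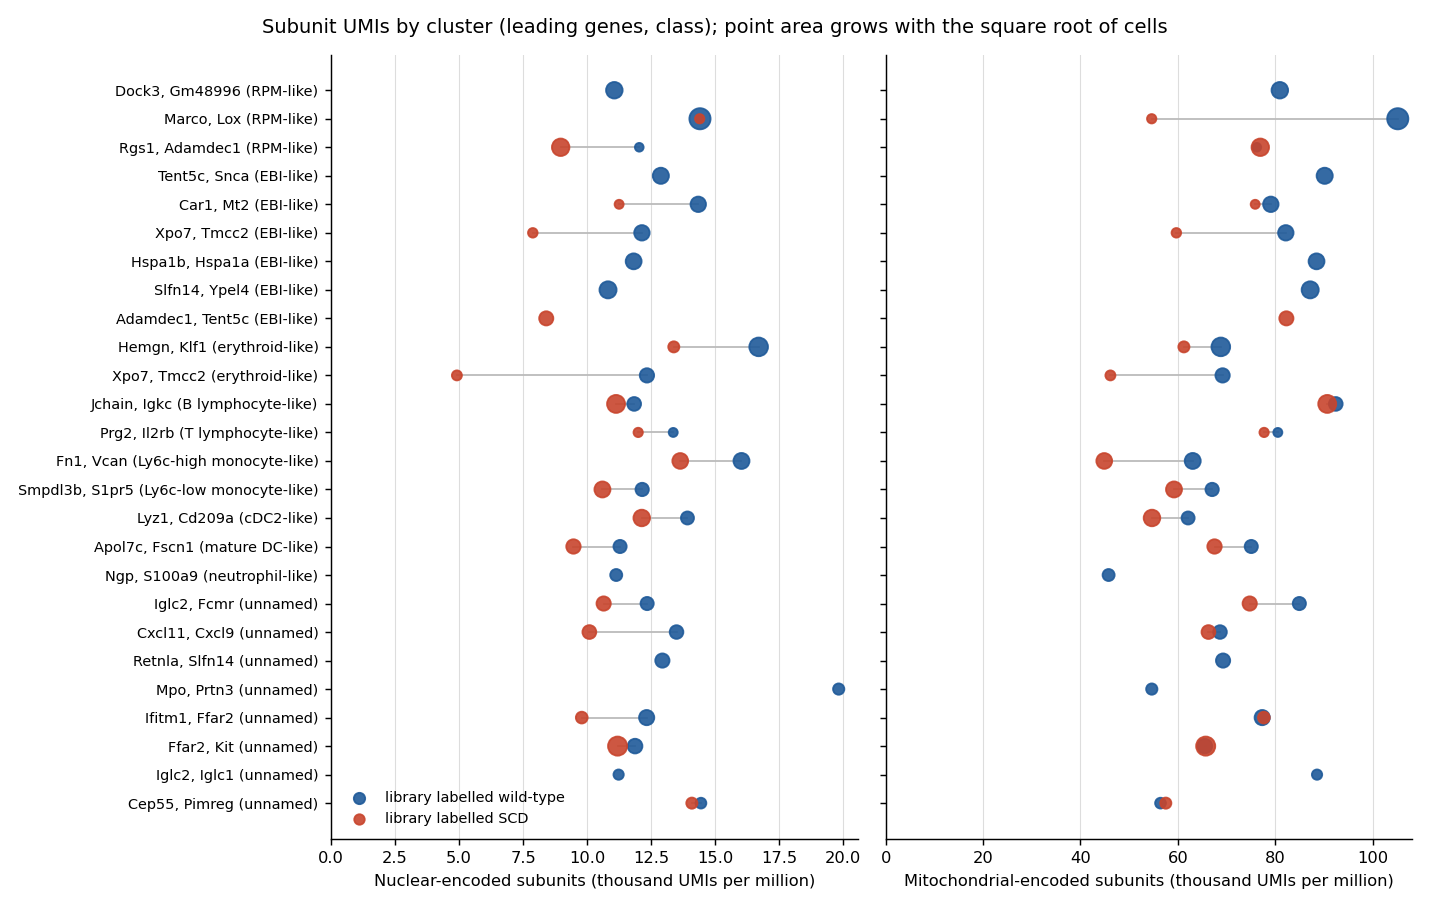
Nuclear (left) and mitochondrial-encoded (right) subunit sums (CPM divided by 1000) in each cluster with at least 50 cells of a library (rows, named by 2 leading genes and class), blue for the wild-type-labelled library and red for the SCD-labelled library, with point area growing with the square root of the cells. Of the clusters with both libraries, the widest nuclear gap is in the erythroid-like cluster led by Xpo7 and Tmcc2 (12337 and 4913 CPM), and the widest mitochondrial gap in the RPM-like cluster led by Marco and Lox (105191 and 54631 CPM).

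Between cell classes, erythroid-like cells held more nuclear subunit UMIs and fewer mitochondrial-encoded ones than RPM-like cells, in both libraries. The median log2 ratio of erythroid-like over RPM-like cells was 0.40 in each library for 78 nuclear subunits, beside -0.37 (wild-type-labelled library) and -0.73 (SCD-labelled library) for all genes, and -0.46 and -0.48 for the 13 mitochondrial-encoded subunits. Of the 78, 30 were at least 1.5-fold higher and 7 lower in each library, beside 25.9% and 44.4% of all genes in the wild-type-labelled and 20% and 53.3% in the SCD-labelled library. Counted in both libraries, 26 were at least 1.5-fold higher and 5 at least 1.5-fold lower, beside 18.8% and 43.5% of all genes. Of the 13, 0 were higher and 4 lower in both. Clusters were made from genes that separate these classes, so the ratios describe the classes and were not tested.

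The subunits highest in erythroid-like cells came from complexes I, IV and V. After Cox6b2, described below, they were Ndufb9 (262 and 81.4 CPM in erythroid-like and RPM-like cells of the wild-type-labelled library, 1.68, and 165 and 44.9 CPM in the SCD-labelled library, 1.88), Ndufv1, which binds NADH (1.31 and 1.54), Atp5h of the ATP synthase stalk (1.19 and 1.35) and Atp5k (1.15 and 1.31). Among the lowest were Cox5a (293 and 670 CPM, -1.19, and 178 and 377 CPM, -1.08), Sdhc (-1.02 and -1.31), Atp5g2 (-0.93 and -0.81) and Sdhb (-0.84 and -0.71). The 2 subunits Cox5a and Cox5b of complex IV thus lay on opposite sides, Cox5b being at 117 and 54.3 CPM (1.11) and at 83.6 and 38.3 CPM (1.13).

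Against B lymphocyte-like cells the libraries differed more. The nuclear median of erythroid-like over B lymphocyte-like cells was 0.42 in the wild-type-labelled library and -0.06 in the SCD-labelled library, beside -0.20 and -0.62 for all genes. In the wild-type-labelled library 23 of 78 were past 1.5-fold higher and 1 lower, beside 27.4% and 37.1% of all genes, and in the SCD-labelled library 9 higher and 8 lower, beside 19.2% and 51.1%. In both libraries 9 were higher and 1 lower, beside 18.6% and 38.6% of all genes. Apart from Cox6b2 the highest were Ndufv1 (1.40 and 0.99), Ndufb9 (1.42 and 0.93), Cox6a1 (653 and 280 CPM, 1.22, and 568 and 306 CPM, 0.89) and Atp5j2 (0.89 and 0.75), and the 1 gene past the fold lower in both libraries was Atp5g2 (-0.95 and -1.10). RPM-like over B lymphocyte-like cells gave nuclear medians of 0.01 and -0.36. There 4 of 77 were higher and 3 lower in the wild-type-labelled library, beside 28.5% and 30% of all genes, 3 higher and 22 lower in the SCD-labelled library, beside 26.1% and 26%, and 3 higher and 3 lower in both, beside 21.8% and 19.5%. In Ly6c-high over Ly6c-low monocyte-like cells the nuclear medians were 0.39 and 0.40. Past the fold were 15 of 78 higher and 0 lower in the wild-type-labelled library, beside 11.3% and 11.6% of all genes, 16 of 77 higher and 0 lower in the SCD-labelled library, beside 8.01% and 13.4%, and 10 higher and 0 lower in both, beside 5.54% and 7.26%. Among the 10 were Ndufb1-ps (516 and 293 CPM, 0.82, and 467 and 252 CPM, 0.89) and Atp5c1 (0.93 and 0.63), and the mitochondrial medians there were -0.16 and -0.43.

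**Figure D5:**
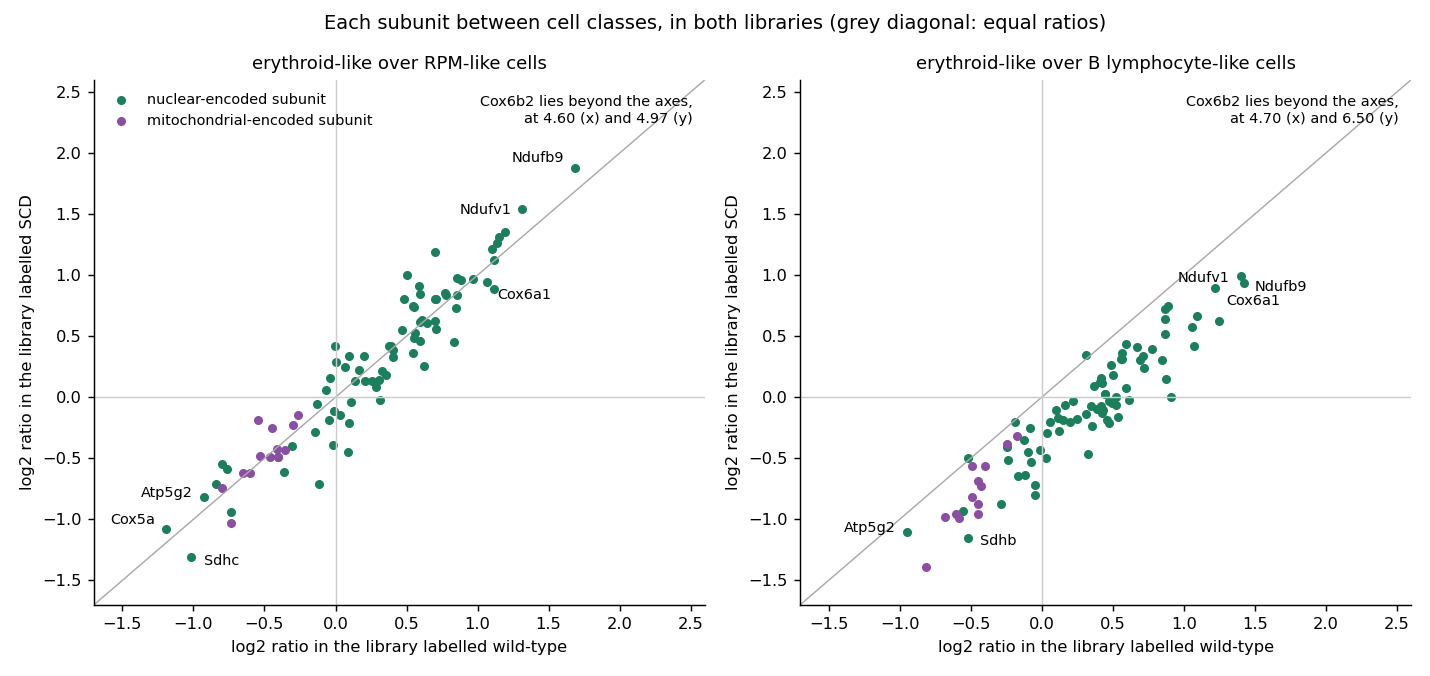
Each point is 1 subunit (green nuclear, purple mitochondrial-encoded), by its log2 ratio between erythroid-like and RPM-like cells (left) or B lymphocyte-like cells (right) in the wild-type-labelled library (x axis) and in the SCD-labelled library (y axis). Cox6b2 lies beyond the axes at 4.60 and 4.97, and at 4.70 and 6.50, and the mitochondrial-encoded subunits lie below 0 in both libraries.

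Cox6b2 encodes the testis form of Cox6b, a subunit that faces the space between the mitochondrial membranes, and stood apart from its counterpart Cox6b1 (chr7:30616861-30626151, - strand) in its pattern over cell classes. The gene (chr7:4751792-4753094, - strand) overlaps no other gene of the annotation. In erythroid-like cells it was at 111 CPM (107 to 116) in the wild-type-labelled library and 75.9 CPM (64.2 to 89.2) in the SCD-labelled library. It was at 36.4 and 9.15 CPM in EBI-like, 12.5 and 10.4 CPM in Ly6c-high monocyte-like, 8.39 and 10.5 CPM in cDC2-like, 4.60 and 2.42 CPM in RPM-like, and 4.27 and 0.84 CPM in B lymphocyte-like cells. The log2 ratio of erythroid-like over RPM-like cells was 4.60 (4.27 to 4.94) and 4.97 (4.26 to 5.77), whereas that of Cox6b1 was 0.17 and 0.22. Erythroid-like cells held 29.96 and 29.7 UMIs of Cox6b2 per 100 of Cox6b1, and RPM-like cells 1.39 and 1.10.

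Free erythroid RNA in droplets can give UMIs of Cox6b2 in other cells, so its shares are set beside those of a class that should lack it. Of erythroid-like cells 45.4% and 24.1% had a UMI of Cox6b2 (median depths 5971.5 and 5127), and of B lymphocyte-like cells, which should lack erythroid transcripts, 1.14% and 0.29% (median depths 2201 and 2900). Thinned to 1000 UMIs a cell, with 9 and 0 shallower erythroid-like cells and 5 and 17 shallower B lymphocyte-like cells left out, these were 10.5% and 3.39%, and 0.38% and 0.12%. Per 100 UMIs of Alas2, the erythroid enzyme that starts heme synthesis, there were 5.99 and 3.84 of Cox6b2 in erythroid-like, 5.89 and 10.2 in RPM-like and 6.82 and 6.10 in B lymphocyte-like cells. There were 32.7 and 117 in Ly6c-high monocyte-like, 16.8 and 73.1 in cDC2-like and 10.8 and 33.3 in mature DC-like cells. Ly6c-low monocyte-like cells had 10.1 and 14.9, and EBI-like cells 3.12 and 0.44. In the wild-type-labelled library the interval in RPM-like cells (4.62 to 7.40) and in B lymphocyte-like cells (2.44 to 15.4) spans the erythroid-like value, while in the SCD-labelled library that in RPM-like cells (5.89 to 16.5) lies above it. In Ly6c-high monocyte-like, cDC2-like and mature DC-like cells the interval lies above the erythroid-like value in both libraries.

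Cox6b2 also had the lowest ratio between libraries of all subunits in EBI-like cells, -1.99 (-2.54 to -1.5), where the clusters of the 2 libraries differ. The EBI-like cluster led by Adamdec1 and Tent5c, nearly all from the SCD-labelled library, had 3.67 CPM of Cox6b2. Within the erythroid-like clusters it was at 108 and 87.9 CPM in that led by Hemgn and Klf1, and at 143 and 15.5 CPM in that led by Xpo7 and Tmcc2. In the latter cluster the intervals were 126 to 161 CPM and 5.05 to 36.3 CPM. The part of globin in this gap was not tested.

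The c-ring of complex V is built from identical proteins made by 3 genes. In RPM-like cells Atp5g1 was at 55.7 and 39.0 CPM (-0.51), Atp5g2 at 442 and 295 CPM (-0.58) and Atp5g3 at 382 and 288 CPM (-0.41). Erythroid-like cells held 37.4 UMIs of Atp5g1 per 100 of Atp5g2 in the wild-type-labelled library and 35.5 in the SCD-labelled library, beside 12.6 and 13.2 in RPM-like and 13.97 and 19.1 in B lymphocyte-like cells. Among the other subunits with a tissue form, Cox6a1, Cox7a2, Cox8a and Ndufa4 were at 313 and 296, 138 and 120, 378 and 231, and 270 and 213 CPM in RPM-like cells, with ratios of -0.08, -0.20, -0.71 and -0.35.

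Promoters of the nuclear subunits were searched for 4 letter strings on both strands, in windows from 250 bases before to 50 after the start (RefSeq, GRCm38.p6, 69 of 86 subunits matched, the 2 rows of Atp5o to 1 entry). The strings are the cores of factors known for respiratory genes, and GATA as the erythroid one. TGCGCATGC, the core of nuclear respiratory factor 1, was in 5 subunit promoters (7.25%), beside 1.72% of all 27025 promoters. CCGGAAG, the core of ETS factors, was in 17 (24.6%), beside 9.93%. AAGATGGC, the core of YY1, was in 10 (14.5%), beside 3.19%. AGATAA, the core of GATA factors, was in 6 (8.70%), beside 12.7%. These matches describe letters and not bound sites. The 3 matches to the first string that lie before the start are shown for the 3 genes that hold one, written along the gene's strand with the match in capitals (there it reads GCATGCGCA, its other strand).
Atp5l, chr9:44920959-44920992, - strand: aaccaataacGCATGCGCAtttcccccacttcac
Ndufa6, chr15:82354351-82354389, - strand: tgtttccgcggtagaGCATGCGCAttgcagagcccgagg
Atp5g2, chr15:102671064-102671102, - strand: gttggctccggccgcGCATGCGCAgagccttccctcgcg

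The 150 bases before the start of Cox6b1 and Cox6b2 are shown because these counterparts differ in their pattern over cell classes. That of Cox6b1 holds 1 match to the ETS string (in capitals, written as its other strand), and that of Cox6b2 holds none of the 4 strings, GATA included. The starts are those of RefSeq. By the coordinates given above, the Cox6b1 gene begins within its stretch, so that the last bases shown, with the ETS match, lie inside that gene.
Cox6b1, chr7:30626115-30626264, - strand: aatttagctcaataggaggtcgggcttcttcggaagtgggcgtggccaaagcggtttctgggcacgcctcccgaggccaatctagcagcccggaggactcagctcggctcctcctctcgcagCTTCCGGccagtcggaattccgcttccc
Cox6b2, chr7:4753095-4753244, - strand: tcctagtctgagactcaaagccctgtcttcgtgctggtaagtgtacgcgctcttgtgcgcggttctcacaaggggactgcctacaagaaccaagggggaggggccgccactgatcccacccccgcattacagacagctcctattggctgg

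Other mitochondrial genes, from 5 lists, did not all move as the subunits did. In RPM-like cells 34 assembly factors of the complexes had a median of 0.13, with 5 past 1.5-fold higher (Uqcc1, Cox18, Ttc19, Timmdc1, Cox15) and 1 lower (Cox10), and 11 genes of mitochondrial gene expression 0.31, with 4 higher (Nrf1, Polrmt, Mterf3, Ppargc1b) and 0 lower. Of all genes 24.1% were past 1.5-fold higher and 9.37% lower in these cells. The medians of both lists lay near or above that of all genes, 0.20, while that of the subunits lay at -0.43. The 13 genes of the TCA cycle had -0.17 (1 higher, Dlst, and 1 lower, Idh3a), 8 carriers -0.21 (0 and 1, Vdac1), and 9 genes of mitochondrial clearance -0.19, with Pink1, Bnip3 and Map1lc3b lower. In B lymphocyte-like cells the medians of the 5 lists in this order (assembly, gene expression, TCA cycle, carriers, clearance) were 0.19, 0.27, 0.23, -0.01 and -0.20, with 4, 1, 1, 0 and 0 genes higher and 0 lower, beside 6.94% and 4% of all genes.

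In EBI-like cells the same lists had medians of -0.19, -0.01, -0.33, -0.32 and 0.00, with 5, 0, 2, 1 and 3 genes past 1.5-fold lower and, in the lists before the clearance genes, 0, 1, 0 and 0 higher. Of all genes 16.8% were lower and 12% higher there. Of the clearance genes Bnip3l, which marks mitochondria of maturing red cells for removal, was past the fold higher. In erythroid-like cells the medians were -0.33, -0.06, -0.29, -0.31 and -0.13, with 7, 1, 1, 1 and 1 lower and 0 higher, beside 16.7% and 5.21% of all genes. Between cell classes assembly factors and subunits parted, since erythroid-like over RPM-like cells gave medians of -0.79 and -1.31 for assembly factors in the 2 libraries, with 3 higher in each and 19 of 34 and 18 of 28 lower. The medians of all genes were -0.37 and -0.73, with 25.9% and 20% higher and 44.4% and 53.3% lower, and that of nuclear subunits 0.40. The clearance genes had 0.48 and 0.68.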

How the data were processed

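UMI counts per gene and cell of 2 droplet libraries (3′ v3.1 chemistry, 1 mouse each) were deposited by the authors after Cell Ranger, version 4.0.0 in the submitters' processing notes and 3.1.0 in the matrix headers, on GRCm38.p6. The counts tag transcript ends and were not normalised. Totals were 145953464 UMIs in 24144 barcodes (wild-type) and 73986356 in 15442 (SCD), and 107 barcodes occurred in both.

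A cell was kept if it had 500 to 5000 genes, less than 15% of its UMIs in mitochondrial genes and less than 30% in ribosomal protein genes. Genes in at least 20 cells entered scran 1.30.0 (R 4.3.3) size factors. Then 2000 variable genes, without the 108 members, globins and sex-linked genes, went into 30 principal components, 15 neighbours and Leiden clustering at resolution 1 (scanpy 1.11.5, Python 3.11.15). Classes were named from marker lists. Every named cluster had at least 3 markers of a list in at least 10% of its cells and 2-fold over all other cells. RPM-like and EBI-like clusters also had a median red pulp marker ratio of at least 4-fold over the main B lymphocyte-like cluster. EBI-like clusters had in addition a median erythroid marker ratio of at least 2-fold over it. Other clusters took the list with the largest share of such markers. Scrublet's automatic threshold marked 0% of the wild-type library, so its top 10% were used there (2046 cells), and 1712 cells (13.9%) were marked in the SCD library. Doublets stayed in, but clusters of at least 50% doublets were left unnamed.

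UMIs were summed per class and library and divided by their total (CPM). With 1 library per group there is no test. Intervals at 95% are exact Poisson (CPM), Clopper-Pearson (shares) and conditional (ratios), and called genes are those past 1.5-fold among genes with at least 100 UMIs. The calculation was tested on simulated data. Named were the mitochondrial-encoded subunits, the 3 highest and 3 lowest ratios in 4 classes, the 5 largest differences each way between classes in both libraries, tissue isoforms with their counterparts, c-subunits, complex II and 8 reference subunits. Genes named for being past the fold in at least 4 classes, or for lying above 0 in most, as well as Atp5o, Atp5h, Cox7a2l and Ndufb4 outside these places, were chosen after their values were seen. The members and the 5 outside lists (assembly factors, TCA cycle, carriers, mitochondrial gene expression, mitochondrial clearance in red cells) were chosen with earlier results of these data known. Values of 2 genes are not reported here. Ndufb1-ps bears a pseudogene's name, and near-identical copies of subunit genes can share reads. Alternatives were other resolutions, doublets left out, no mitochondrial limit, another denominator, another UMI minimum, equal weight of cells and a range of depth.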

Additional observations from a re-analysis of the deposited data

Results flagged for a closer look

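The nuclear share of subunit UMIs in Ly6c-high monocyte-like cells was 3.04 percentage points higher in the SCD-labelled library (23.3% against 20.3%), while it was lower with intervals apart in 5 other classes. This difference between classes was not tested, since each group is 1 library. All 13 mitochondrial-encoded subunits lay below 0 in these cells, with a median of -0.58, beside -0.24 for nuclear subunits, and their median depths were 5920 and 5755.5 UMIs.

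Cells over the mitochondrial limit of 15% entered no comparison above. When cells were clustered without that limit, 57.0% of T lymphocyte-like cells of the SCD-labelled library (151 of 265, interval 50.8 to 63.0%) and 26.1% of those of the wild-type-labelled library (24 of 92, 17.5 to 36.3%) lay over it. In the same order, the nuclear share in these cells was 1.55% and 3.42%, at medians of 1094 and 1028.5 UMIs, beside 12.3% and 13.4% in T lymphocyte-like cells under the limit. In RPM-like cells 9.86% (SCD-labelled library) and 15.9% (wild-type-labelled library) lay over the limit, and in erythroid-like cells 4.73% and 5.69%.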

How the results depend on the processing

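Of 60 values for RPM-like, erythroid-like and B lymphocyte-like cells under other settings, 41 moved by less than a tolerance, 17 by more, and 2 changed sign. For share differences the tolerance came from their counting intervals. For medians it was the typical half-width of a single gene's interval, not an interval of the median. It was 0.21 for nuclear subunits in erythroid-like and 0.26 in B lymphocyte-like cells, so medians could shift that far and still count among the 41. The signs that changed were the nuclear share in RPM-like cells with equal weight for every cell (0.81 percentage points, against -1.49) and the mitochondrial median in B lymphocyte-like cells without the mitochondrial limit (0.012, against -0.03). The nuclear median stayed between -0.50 and -0.41 in RPM-like and between -0.11 and -0.06 in B lymphocyte-like cells. In erythroid-like cells it was -0.77 with cells of 2000 to 8000 UMIs alone, a setting chosen after seeing the data, and -0.71 with equal weight, but -0.31 at resolution 0.5, -0.34 without doublets and -0.35 with a denominator without mitochondrial-encoded, globin and immunoglobulin UMIs (against -0.48). The mitochondrial median in RPM-like cells was -0.35 in that depth range, -0.33 with the same denominator, -0.51 with equal weight and -0.28 without the limit (against -0.30). In erythroid-like cells it was -0.25 at resolution 0.5, -0.65 in the depth range, -0.19 with the other denominator, -0.24 without doublets, -0.48 with equal weight and -0.38 without the limit (against -0.33). The share difference in RPM-like cells was -1.39 at resolution 2. In erythroid-like cells it was -1.25 at resolution 0.5 and without doublets, -2.56 in the depth range and -1.73 without the limit (against -2.16). The cause of these changes was not tested. No paired analysis was possible because each group has 1 library, and for the same reason no library could be left out. In the T lymphocyte-like class, with 61 and 74 cells, 19 of 86 nuclear subunits reached 100 UMIs.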
